A study of Mus musculus with 18 samples.

Results

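PreCFU-E cells are bone marrow progenitors committed to making red blood cells. They were examined here with and without Ptbp1, the gene of an RNA-binding protein. The comparison set all 3 preCFU-E KO libraries, from Ptbp1 -/- mice, against all 3 preCFU-E wt libraries, from mice homozygous for the floxed allele (Ptbp1 fl/fl). These 6 of the 18 libraries of the series were taken by their labels and fitted alone. The animals were of the C57BL/6 strain. Sorting kept lineage-negative, c-kit+ cells that had CD150 and CD105 on their surface and lacked Sca-1, CD41 and FcgRII/III. The other libraries come from HSC, the hematopoietic stem cells, and from preMegE cells, which precede preCFU-E and can still form megakaryocytes. The wt mice thus carry floxed alleles too. The sources used here name neither the Cre driver nor the time of deletion, the age of the animals or any pooling. The design calls the 3 libraries of a group biological replicates.

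PTBP1 binds pyrimidine-rich RNA and, in most of its known targets, keeps alternative exons out of the mature transcript. Its paralog PTBP2 is best known from neurons. PTBP1 holds PTBP2 down by causing a coding exon of Ptbp2 to be skipped, which exposes the transcript to nonsense-mediated decay (NMD), the pathway that degrades transcripts with a premature stop. Erythroid progenitors divide rapidly and load their cytoplasm with ribosomes before they make hemoglobin.

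The 6 libraries held 20425287, 25134352 and 23840192 estimated reads in KO 1 to 3, against 29209728, 23671904 and 18896416 in wt 1, wt 2 and wt 3. Mitochondrial ribosomal RNA took 28.8%, 27.1% and 12.7% of the reads in the KO libraries, against 17.3%, 14.3% and 19.4% in wt. KO 3 thus stood apart from KO 1 and KO 2 in this measure. Gene levels below are CPM, reads of a gene scaled to a common library total with TMM factors, as the mean ± SD over 3 libraries unless single libraries are given. The common biological coefficient of variation was 0.127, against 0.238 among preMegE and 0.474 among HSC libraries. No pair of replicates was near identical. In these bulk samples, fewer cells of a type and less RNA per cell cannot be told apart.

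The sorted cells carried the RNA of their surface markers. Kit, the stem cell factor receptor, was at 555 ± 40.8 CPM in KO and 601 ± 37.7 CPM in wt. Eng, which encodes CD105, ran from 115 to 136 CPM in KO and from 100.2 to 117 CPM in wt. Slamf1, which encodes CD150, had at most 9.92 CPM in KO and 7.35 CPM in wt. Ly6a (Sca-1), Fcgr3 and Fcgr2b were each under 0.7 CPM in all 6 libraries, and Itga2b (CD41) ran from 1.18 to 2.20 CPM in KO and from 1.38 to 1.75 CPM in wt. The erythroid factor genes Gata1 and Klf1 and the carbonic anhydrase gene Car1 were present, with Car1 at 3924 ± 79.9 CPM in KO and 3837 ± 418 CPM in wt. Globin genes were near the floor: the 8 globin genes together held 2.54 to 4.34 CPM in KO and 3.03 to 6.86 CPM in wt.

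Ptbp1 was examined first. Ptbp1 (ENSMUSG00000006498, GRCm38 chromosome 10, 79854427 to 79864771) had 230.6, 229 and 233 CPM in the KO libraries (in the order 1 to 3, as throughout), against 886, 948 and 1005 CPM in wt. The groups were far apart and the KO libraries nearly equal. The log2 change was -2.03 (SE 0.09, edgeR adjusted p 7.64e-10). Ptbp2 (ENSMUSG00000028134, chromosome 3, 119718742 to 119784466) had 100.3, 108 and 106 CPM in KO, against 9.10, 8.14 and 5.79 CPM in wt. Every KO library was thus above 100 CPM and every wt library below 10 CPM. Its rise of 3.75 on the log2 scale (SE 0.13, edgeR adjusted p 1.79e-10) was the largest among the genes named by the rule for rises. Ptbp3, the blood-expressed paralog, was at 716 ± 55.4 CPM in KO and 738 ± 42.8 CPM in wt (log2 -0.04, SE 0.10, adjusted p 0.893).

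**Figure D1:**
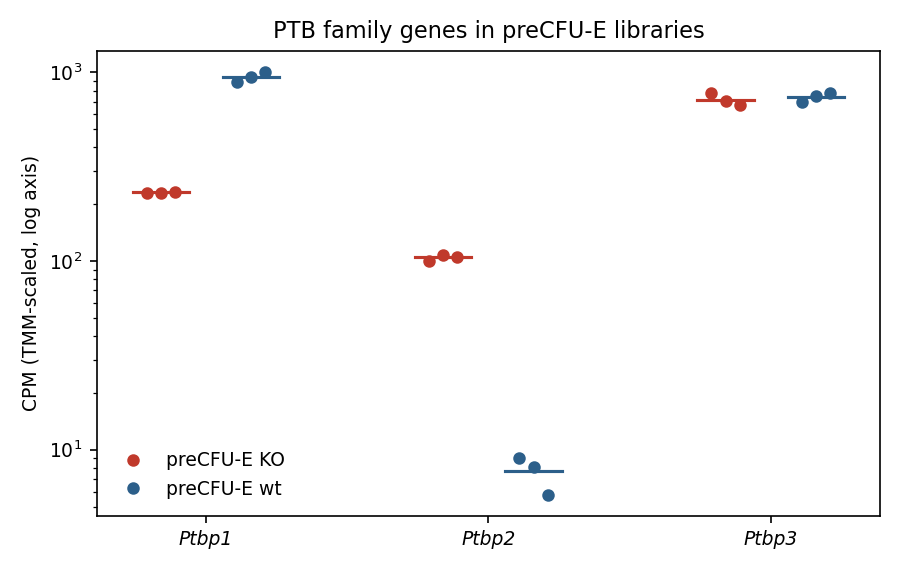
CPM of the 3 PTB family genes in the 6 preCFU-E libraries, on a log axis. Points are libraries (KO left, wt right) and bars are group means. Ptbp1 lies at 229 to 233 CPM in KO and 886 to 1005 CPM in wt, Ptbp2 at 100.3 to 108 CPM in KO and 5.79 to 9.10 CPM in wt, and Ptbp3 overlaps between the groups.

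Transcript values showed what was left of Ptbp1. They are in TPM, an abundance corrected for transcript length, as divided among annotated transcripts by the authors' quantifier. TPM are not TMM-scaled: over all genes the median log2 ratio of mean TPM, KO over wt, was -0.31, against -0.0029 on TMM-scaled counts. Log2 changes and tests of transcripts are on TMM-scaled counts, so they can differ from the ratio of the TPM beside them. Ptbp1-214, annotated as retaining an intron, was listed at 0 TPM in every KO library, against 191, 201 and 215 TPM in wt. Ptbp1-201, annotated as an NMD target, and Ptbp1-203, a processed transcript, were also listed at 0 in every KO library, against 89.0 ± 10.6 and 107 ± 24.1 TPM in wt. The reads that remained lay mostly in Ptbp1-205, which retains an intron and held 66.7% of the gene's TPM in KO and 22.8% in wt. Its level was still lower in KO, at 61.8 ± 6.65 TPM against 163 ± 11.1 TPM in wt (log2 -1.05, adjusted p 0.00837). Ptbp1-213, also annotated as retaining an intron, was the exception that rose, with 23.5, 11.98 and 26.1 TPM in KO against 1.29, 0.776 and 0.329 TPM in wt (log2 4.94, SE 0.53, edgeR adjusted p 0.0295).

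The Ptbp2 rise came with coding transcripts. Ptbp2-202 was at 25.7 ± 1.76 TPM in KO and 0.776 ± 0.344 TPM in wt (adjusted p 0.012), and Ptbp2-213 at 8.83 ± 2.17 TPM in KO and 0.461 ± 0.248 TPM in wt (log2 4.60, adjusted p 0.023). Transcripts not annotated as coding held 9.60% ± 5.91 of the Ptbp2 TPM in KO and 45.6% ± 14.6 in wt. A coding exon of Ptbp2 (chr3:119726066-119726220, minus strand, 155 nt) was included at 99.6%, 100% and 100% in KO, against 92.1%, 93.9% and 80.2% in wt. That gain of 11.1 percentage points passed the test (limma adjusted p 0.038). The usage test over the transcripts of Ptbp2 did not (edgeR adjusted p 1). This 155-nt exon was not identified here as the one whose skipping exposes Ptbp2 to NMD.

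Inclusion of single exons was examined next. Percent spliced in sets the summed TPM of the transcripts that include an exon over that of all transcripts that either include or skip it. It was tested for 5303 annotated cassette exons, and an exon was called at a limma adjusted p below 0.05 with a change of at least 10 points. Of these, 95 exons (1.79%) in 66 genes were called, 68 (1.28%) more included and 27 (0.509%) less included in KO. Exons of the same transcripts share their values and are not independent. The values of KO and wt libraries did not overlap for 1023 of all exons tested (19.3%). The 5 exons with the largest changes in distinct genes are shown, because they are the clearest view of what the transcripts of KO cells contain that those of wt cells mostly lack. The exon is in capitals and the neighbouring coding bases of the adjoining exons are in lower case. Sequences are those of GENCODE M21 transcripts on GRCm38, 5′ to 3′ on the gene's strand.
Reep6, chr10:80334713-80334793, plus strand, exon 5 of 6: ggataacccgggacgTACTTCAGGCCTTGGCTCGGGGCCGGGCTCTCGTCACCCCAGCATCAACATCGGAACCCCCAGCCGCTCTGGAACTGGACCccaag
Tpm1, chr9:67031951-67032026, minus strand, exon 5 of 8: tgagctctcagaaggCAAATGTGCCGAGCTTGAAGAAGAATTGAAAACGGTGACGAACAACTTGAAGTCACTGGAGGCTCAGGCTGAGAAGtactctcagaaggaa
Tpm1, the alternative to that exon, chr9:67032466-67032541, minus strand, exon 5 of 8: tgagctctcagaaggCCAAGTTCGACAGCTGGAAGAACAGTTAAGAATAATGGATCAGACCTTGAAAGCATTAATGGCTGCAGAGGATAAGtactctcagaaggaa
Arhgef1, chr7:24919184-24919351, plus strand, exon 4 of 18: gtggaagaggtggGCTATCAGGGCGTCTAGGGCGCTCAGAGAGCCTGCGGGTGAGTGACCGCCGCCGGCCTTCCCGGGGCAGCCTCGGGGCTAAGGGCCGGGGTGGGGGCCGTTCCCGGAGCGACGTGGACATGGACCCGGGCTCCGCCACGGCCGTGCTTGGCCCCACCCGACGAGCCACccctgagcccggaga
Exoc7, chr11:116297571-116297663, minus strand, exon 7 of 20: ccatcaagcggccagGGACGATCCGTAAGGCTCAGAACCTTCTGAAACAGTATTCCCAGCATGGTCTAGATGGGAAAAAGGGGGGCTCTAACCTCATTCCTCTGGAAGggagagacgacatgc
Anxa7, chr14:20467458-20467523, minus strand, exon 6 of 14: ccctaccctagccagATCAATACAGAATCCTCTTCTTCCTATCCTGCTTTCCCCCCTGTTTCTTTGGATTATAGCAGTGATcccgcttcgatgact

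Reep6, which shapes membranes of the endoplasmic reticulum, had its 81-nt exon included at 92.1%, 80.5% and 88.3% in KO, against 3.27%, 1.30% and 4.60% in wt. The exon was thus in most Reep6 transcripts of KO cells and in few of wt cells, a gain of 83.9 points (limma adjusted p 0.00348). Its transcript Reep6-207 rose to 16.6 ± 3.95 TPM in KO, against 0.718 ± 0.434 TPM in wt (log2 4.89, SE 0.46, edgeR adjusted p 0.0174). The gene as a whole was at 32.3 ± 4.99 CPM in KO and 30.4 ± 2.97 CPM in wt (edgeR adjusted p 0.793).

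Tpm1 encodes a tropomyosin, which winds along actin filaments, and has a pair of 76-nt exons that are used in place of each other. The exon at 67031951 was included at 93.6%, 93.3% and 93.9% in KO, against 10.98%, 14.01% and 13.13% in wt (a gain of 80.9 points, limma adjusted p 0.00135). Its alternative at 67032466 was included at 6.15%, 3.72% and 4.14% in KO, against 85.8%, 83.7% and 85.9% in wt (-80.5 points, limma adjusted p 0.00153). The preferred exon of the pair was therefore a different one in KO and in wt. The 2 exons printed above are of equal length and have the same base at 43 of 76 positions (56.6%). The transcript with the wt exon, Tpm1-212, fell to 0.874 ± 0.194 TPM in KO, against 25.9 ± 2.77 TPM in wt (log2 -4.56, SE 0.18, edgeR adjusted p 0.00115). The gene itself was at 29.4 ± 2.56 CPM in KO and 41.8 ± 2.31 CPM in wt (log2 -0.50, SE 0.09, edgeR adjusted p 0.00998).

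Arhgef1 activates the small GTPase RhoA. Its 168-nt exon was included at 94.2%, 96.9% and 97.0% in KO, against 31.2%, 32.6% and 25.5% in wt (a gain of 66.3 points, limma adjusted p 0.00164). Arhgef1-201 was listed at 0 TPM in every KO library, against 12.8, 19.3 and 11.96 TPM in wt. Exoc7, a subunit of the exocyst that tethers vesicles to the plasma membrane, included its 93-nt exon at 66.7%, 76.5% and 74.9% in KO, against 7.96%, 6.85% and 6.65% in wt (65.5 points, limma adjusted p 0.00164). Anxa7 is a calcium-dependent membrane-binding annexin, and its 66-nt exon is part of the longer form known from muscle and brain. This exon was included at 69.4%, 62.4% and 63.7% in KO, against 1.85%, 0.392% and 1.64% in wt (63.9 points, limma adjusted p 0.00164). None of these 3 genes passed the test of its level, with edgeR adjusted p of 0.456 for Arhgef1, 0.399 for Exoc7 and 0.446 for Anxa7.

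Several of the other named exons were very short. Mars, the cytosolic methionyl-tRNA synthetase gene, included a 24-nt exon at 58.4% ± 5.02 in KO and 5.05% ± 0.680 in wt. Ctnnd1, which encodes p120 catenin of cell junctions, included an 18-nt exon at 57.0% ± 3.35 in KO and 4.65% ± 0.389 in wt. Atp8a1, a phospholipid flippase, included a 45-nt exon at 77.4% ± 2.98 in KO and 26.6% ± 1.11 in wt. These 3 had limma adjusted p of 0.00164, 0.00164 and 0.00361. Psap, the precursor of the saposins that activate lysosomal enzymes, included a 9-nt exon at 51.9% ± 7.002 in KO and 2.32% ± 2.74 in wt (adjusted p 0.0306). Golga2, a Golgi matrix protein gene, included an 81-nt exon at 74.5% ± 10.3 in KO and 21.8% ± 3.08 in wt (adjusted p 0.0288). Of the 12 named exons, only that of Immt, a scaffold of mitochondrial cristae, was less included. This 105-nt exon was at 29.9% ± 1.57 in KO and 80.1% ± 5.95 in wt (adjusted p 0.0124). Versions of it with other start positions, of 138 and 102 nt, were called separately and were also less included. Another Immt exon, of 15 nt, was called as more included, at 76.6% ± 1.30 in KO and 53.5% ± 1.82 in wt. The 78-nt exon of Ptbp1 itself was at 96.7% ± 3.63 in KO and 53.4% ± 1.51 in wt (adjusted p 0.0423), read on the little Ptbp1 RNA that KO cells kept. The calls of the Golga2, Immt, Psap and Ptbp1 exons were each lost when single libraries were left out, with adjusted p up to 0.175, while the other 8 kept their calls in each of these 6 fits.

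**Figure D2:**
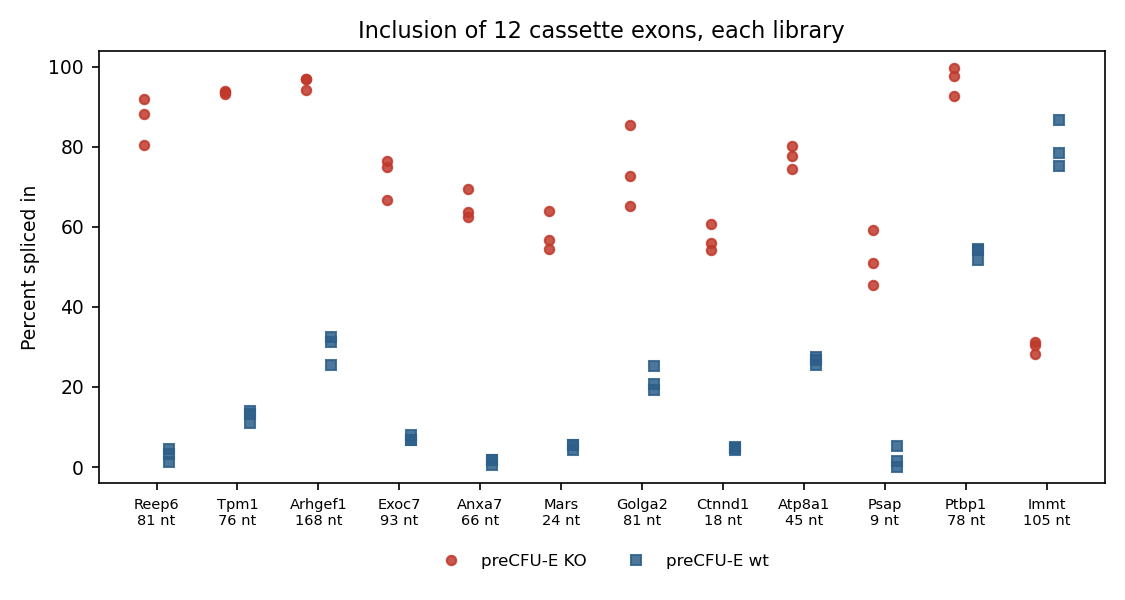
Percent spliced in of the 12 named cassette exons in each preCFU-E library, with the exon's length in nucleotides (nt) under the gene. Circles are KO libraries and squares wt libraries. Of the 12 exons, 11 lie higher in KO and the Immt exon lower, and the groups do not overlap for any, as the naming rule required.

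The called exons were also described by their length and base composition. Exons more included in KO had a median length of 78 nt, those less included 99 nt and all exons tested 103 nt. Exons of at most 51 nt made up 22 of 68 (32.4%) of the more included, 2 of 27 (7.41%) of the less included and 12.5% of all tested. Lengths divisible by 3, which keep the reading frame, were found in 66.2% of the more included, 63.0% of the less included and 45.8% of all exons tested. These shares count exons, not separate events: the 68 lay in 50 genes, the 27 in 23 genes and all tested in 2784 genes. Several called exons of Lrrfip1 and of Macf1 shared their values, and all had lengths divisible by 3. The short ones included several of Lrrfip1, and exons of 31 and 34 nt in Ptbp1, the deleted gene. The median share of C and T within the exon differed little, at 48.5%, 46.5% and 47.6%. The printed Anxa7 exon stood higher, at 68.2% C and T, and the printed Tpm1 exon lower, at 34.2%. The adjoining introns, where PTBP1 often binds, were not analysed here.

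Further called exons lay in genes that matter to this cell type, and these were chosen after their values were seen. Ank1 encodes the ankyrin that anchors the membrane skeleton of red cells. Its partly coding 125-nt exon was included at 48.4%, 47.3% and 46.7% in KO, against 17.5%, 19.5% and 17.1% in wt (limma adjusted p 0.0124). Rps24, a ribosomal protein gene, included a 20-nt exon outside the coding sequence at 25.5% ± 2.60 in KO and 7.28% ± 0.956 in wt (adjusted p 0.0186). That percentage counts only transcripts that include or skip the exon, which held 117 TPM on average. They are a small part of Rps24 RNA: Rps24-202, at 23.7 TPM in KO, was 1.25% of the gene's TPM. Tpm3, another tropomyosin gene, shifted between a pair of 76-nt exons as Tpm1 did, though by less. One was included at 22.1% ± 1.97 in KO and 6.57% ± 0.578 in wt, and the other at 77.9% ± 2.01 in KO and 93.4% ± 0.603 in wt (adjusted p 0.0186 for both). Hnrnpa2b1, itself a splicing factor gene, included a 136-nt noncoding exon at 65.5% ± 2.26 in KO and 35.9% ± 1.94 in wt (adjusted p 0.0232). The Hnrnpa2b1 transcripts that include or skip it held 41.05 TPM on average, against 853 TPM in KO and 1066 TPM in wt for the whole gene. Chromatin remodelling genes were among the called ones too. An exon of Smarca2 was at 74.4% ± 11.5 in KO and listed at 100% in every wt library (limma adjusted p 0.00613). An exon of Smarcc2 was at 20.7% ± 1.30 in KO and 5.15% ± 1.86 in wt (adjusted p 0.0313). The usage test called Ank1 and Tpm3 (edgeR adjusted p 4.75e-05 and 0.00022) but not Hnrnpa2b1, Smarca2 or Smarcc2. Single exons of this paragraph were not followed through the alternative fits. Just inside the limit of 10 points lay Dcp1a, at 10 points, and just outside it Camsap1, at -9.68 points with an adjusted p of 0.0057.

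Calls for exons and calls for gene level were then set side by side. All 66 genes with a called exon were also tested for level, and 4 of them were called, against 1.84% of all genes: Sms and Ptbp2 were higher and Tpm1 and Ptbp1 lower in KO. Usage of transcripts within a gene was called by edgeR for 84 of 7975 genes (1.05%), and 35 of the 66 genes with a called exon were among them. Of those 84 genes, 10 were also called for their level, Ptbp1 among them, against 1.84% of all genes. Both tests use the same reads, and gene counts are not corrected for transcript length, so the 2 sets of calls are not independent. Among single transcripts, edgeR called 150 of 30301 (0.495%), with 82 higher (0.271%) and 68 lower (0.224%) in KO. Of the 1642 transcripts annotated as NMD targets, 2 rose and 6 fell, and of 5211 annotated as retaining an intron, 2 rose and 5 fell. These categories include the Ptbp1 transcripts above. Capzb-203, from the gene of an actin capping protein, was a rise from a gene that itself did not pass: it was at 17.7 ± 0.548 TPM in KO and 1.62 ± 0.529 TPM in wt (log2 3.76, SE 0.22, edgeR adjusted p 0.00461), while Capzb had an adjusted p of 0.547. Mars-206 was at 10.6 ± 1.68 TPM in KO and 0.564 ± 0.388 TPM in wt (log2 4.58, SE 0.48, edgeR adjusted p 0.0264), and Anxa7-202 at 10.3 ± 1.33 TPM in KO and 0.284 ± 0.166 TPM in wt (log2 5.45, SE 0.50, edgeR adjusted p 0.0174).

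At the level of genes, edgeR called 252 of 13726 genes (1.84%) at an adjusted p below 0.05, 118 higher (0.86%) and 134 lower (0.976%) in KO. The KO and wt libraries did not overlap for 2600 of all genes tested (18.9%), many more than were called. The called genes were mostly protein-coding, at 104 of those higher and 128 of those lower. Just inside the threshold lay Lsm10, with an adjusted p of 0.0499, and just outside it Agap1, with 0.0515.

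Beside Ptbp2, the rule for large rises named 11 genes of low to moderate level. Podxl, a sialomucin of the cell surface, had 10.99, 8.04 and 11.4 CPM in KO, against 1.65, 2.17 and 2.18 CPM in wt (log2 2.35, SE 0.21, edgeR adjusted p 3.59e-06). Its lowest KO library was above its highest wt library by over 3-fold. Atat1, which acetylates alpha-tubulin, had 8.80, 6.23 and 9.59 CPM in KO, against 2.86, 1.75 and 2.18 CPM in wt (log2 1.85, SE 0.23, edgeR adjusted p 0.000196). Tmem86b, a lysoplasmalogenase that degrades ether lipids, was at 12.3 ± 0.927 CPM in KO and 4.77 ± 0.243 CPM in wt (log2 1.36, SE 0.15, edgeR adjusted p 4.37e-05). These 3 calls held in all 15 alternative fits. Cytoskeletal and adhesion genes followed: Actn1, which crosslinks actin (log2 1.42), Ppp1r12b, a regulatory subunit of myosin phosphatase (1.45), and the adhesion gene Mdga1 (1.39). The ubiquitin ligase gene Rnf144b (1.44), Phlda2 (1.42), the kinase gene Map3k13 (1.38) and 2510009E07Rik (1.27) completed these, and their edgeR adjusted p ran from 1.6e-07 for Ppp1r12b to 0.0112 for Map3k13. Ppp1r12b was not called with length-scaled counts (adjusted p 0.817), nor was Actn1, which was also lost in the fit of all 18 libraries (up to 0.249). Map3k13 was lost without KO 2, KO 3 or wt 1 and in the fit of all 18 libraries (up to 0.726), and Mdga1 without wt 3 (0.0988). Rnf144b, Phlda2 and 2510009E07Rik were lost only in the fit of all 18 libraries, with adjusted p of 0.132, 0.377 and 0.119.

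Cx3cr1, the fractalkine receptor gene, varied among the KO libraries. It had 14.4, 8.50 and 6.30 CPM in KO, against 3.79, 2.83 and 3.13 CPM in wt (log2 1.56, SE 0.28, edgeR adjusted p 0.0145). All KO libraries lay above all wt libraries, as the naming rule required. KO 1 was the highest, and the same library was the highest of the 6 in Vim, at 126 CPM against 62.3 and 47.2 CPM in the other KO libraries and 37.1 to 44.0 CPM in wt. It was also the highest in Nkg7, at 34.3 CPM against 20.95 and 17.3 CPM in the other KO libraries and 18.4 to 18.7 CPM in wt. Summed over all 16 endothelial and stromal markers, levels ran from 66.9 to 151 CPM in KO and from 59.4 to 63.0 CPM in wt, with 0 of the 6 tested markers called and Emcn at 0 in all 6 libraries. Over 16 T and NK cell markers they ran from 18 to 35.4 CPM in KO and from 19.2 to 19.7 CPM in wt, with Cd3e, Trac and Ncr1 at 0 throughout. Over 18 macrophage markers they ran from 430 to 454 CPM in KO and from 423 to 437 CPM in wt. Of the 9 tested macrophage markers, 2 had a positive and 7 a negative change, with a median of -0.39. EdgeR and voom called 0 of them, and DESeq2 called 1 higher and 1 lower. The Cx3cr1 call was lost without any single wt library, with voom and in the fit of all 18 libraries (adjusted p up to 0.335), and kept without any single KO library.

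The largest falls named enzymes, regulators of cell death and a DNA methyltransferase. Abhd14b, a hydrolase, had 1.65, 1.77 and 2.00 CPM in KO, against 9.72, 10.2 and 7.17 CPM in wt (log2 -2.32, SE 0.21, edgeR adjusted p 4.03e-06). Pgm2, a phosphoglucomutase that converts pentose and hexose phosphates, had 32.3, 30.5 and 24.5 CPM in KO, against 80.6, 91.8 and 103 CPM in wt (log2 -1.66, SE 0.12, edgeR adjusted p 4.59e-07). Dnmt3b, which lays down new DNA methylation, had 26.4, 23.2 and 19.3 CPM in KO, against 60.7, 72.2 and 63.4 CPM in wt (log2 -1.51, SE 0.11, edgeR adjusted p 4.59e-07). For each of them all KO libraries lay below all wt libraries, as the naming rule required. The remaining falls were Uvssa, a factor of transcription-coupled DNA repair (-1.57), Unc45a, a myosin chaperone (-1.55), the centrosome gene Lrrcc1 (-1.33), the annexin gene Anxa9 (-1.27) and Invs, of the primary cilium (-1.25), with edgeR adjusted p from 2.4e-05 to 0.000257.

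The cell death list held 3 falls. Ripk1, the kinase at the branch between survival, apoptosis and necroptosis, had 15.6, 15.6 and 16.7 CPM in KO, against 41.7, 42.7 and 46.0 CPM in wt (log2 -1.44, SE 0.09, edgeR adjusted p 9.67e-08). Mlkl, which permeabilises the membrane in necroptosis, had 5.003, 4.45 and 3.37 CPM in KO, against 10.2, 16.1 and 10.6 CPM in wt (log2 -1.54, SE 0.20, edgeR adjusted p 0.000622). Casp8, the initiator caspase that restrains necroptosis, was at 50.1 ± 3.62 CPM in KO and 69.1 ± 6.15 CPM in wt (log2 -0.46, SE 0.09, edgeR adjusted p 0.0144). The Casp8 call was lost without KO 2, without KO 3, with length-scaled counts and in the fit of all 18 libraries. Ripk1, Mlkl and Casp8 were 3 of 27 tested genes of the cell death list (11.1%, against 0.976% of all genes), whose changes were positive for 14 and negative for 13. In that list 0 rose, with 1 higher at an unadjusted p under 0.05 and 0 higher by DESeq2 and voom. The list median was 0.05, against -0.0029 over all genes. This list was chosen with earlier results of these data known, so its share of calls cannot show an excess. Malt1, a paracaspase of NF-kB signalling and not on that list, had 8.85, 5.18 and 5.68 CPM in KO, against 18.7, 19.4 and 17.4 CPM in wt (log2 -1.51, SE 0.17, edgeR adjusted p 0.000125). Transcripts not annotated as coding held 14.1% ± 0.487 of Ripk1 TPM in KO and 5.83% ± 3.70 in wt, and 19.7% ± 5.30 of Malt1 TPM in KO and 7.45% ± 2.27 in wt. Neither Ripk1 nor Malt1 was called for usage (edgeR adjusted p 1 for both). The share was not clearly higher in KO for every fall. It was 3.62% ± 6.3 in KO and 5.05% ± 2.8 in wt for Mlkl, and 8.86% ± 8.5 in KO and 7.78% ± 6.8 in wt for Uvssa.

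**Figure D3:**
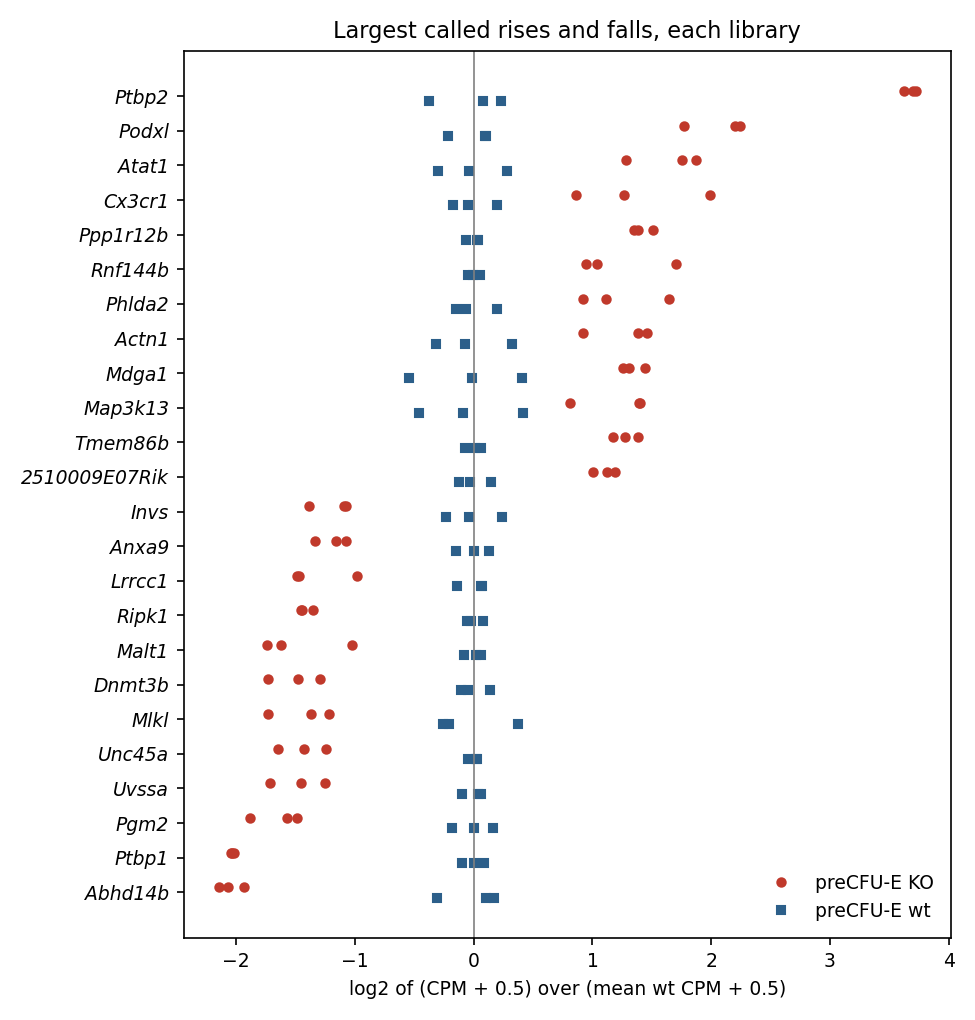
Each preCFU-E library's level of the genes with the largest called rises and falls, as log2 of CPM plus 0.5 over the wt mean plus 0.5. Circles are KO libraries and squares wt libraries. KO and wt libraries do not overlap for any of these genes, as the naming rule required, and the KO libraries of Cx3cr1 are spread from 6.30 to 14.4 CPM.

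Genes known from the general literature to hold exons controlled by PTBP1 were read as a list, which was written with earlier results of these data known. Of its 23 tested members 5 rose (21.7%, against 0.86% of all genes) and 2 fell (8.7%, against 0.976%), with a list median of 0.09. Besides Ptbp2, Atat1 and Actn1, the rises were Rtn4 and Gabbr1. Rtn4, a protein that curves the endoplasmic reticulum, was at 240.3 ± 8.23 CPM in KO and 119 ± 10.01 CPM in wt (log2 1.01, SE 0.09, edgeR adjusted p 4.03e-06). It was also called for usage (edgeR adjusted p 0.0307): Rtn4-203 held 70.7% of the gene's TPM in KO and 20.2% in wt. CPM are not corrected for transcript length, and the part of this shift in the rise was not tested. Gabbr1, a GABA receptor gene at a low level, had 1.924, 1.5 and 0.9397 CPM in KO against 0.155, 0.155 and 0.319 CPM in wt (adjusted p 0.00511). Its call was lost with length-scaled counts (adjusted p 0.214). The falls were Tpm1 and Necap2, an endocytosis factor at 42.2 ± 2.34 CPM in KO and 99.2 ± 4.03 CPM in wt (log2 -1.23, SE 0.09, edgeR adjusted p 1.86e-07). The gene of the neuronal scaffold Dlg4 was at 3.68 CPM in KO and 4.09 CPM in wt, and Pkm at 8.31 CPM in KO and 6.66 CPM in wt, neither past the test (adjusted p 0.803 and 0.714).

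The erythroid program was measured next. Over all genes tested, edgeR called 0.86% higher and 0.976% lower, the shares to set beside the counts of this and the following lists. The lists were chosen with earlier results of these data known, so a share above these cannot show an excess. Of 19 tested erythroid transcription factor genes edgeR called 0, and DESeq2 and voom likewise called 0. Before adjustment, 0 rises and 2 falls had p below 0.05. Klf1 had 134, 146 and 165 CPM in KO, against 135, 133 and 150 CPM in wt, and Gata1 had 80.2, 76.6 and 75.5 CPM in KO, against 79.7, 82.7 and 74.7 CPM in wt. KO and wt overlap in both genes. Myb, which keeps progenitors dividing, was at 1099 ± 27.7 CPM in KO and 1001 ± 48.2 CPM in wt (adjusted p 0.601). Of 28 genes of the red cell surface and membrane skeleton 0 rose and 1 fell (3.57%, against 0.976% of all genes). It was the blood group gene Kel, at 34.9 ± 3.07 CPM in KO and 45.9 ± 4.34 CPM in wt (log2 -0.40, SE 0.10, edgeR adjusted p 0.049). That call was lost in 10 of 15 alternatives. Of 28 heme and iron genes 0 rose and 1 fell (3.57%, against 0.976% of all genes). It was Hmox1, which degrades heme, with 0.275, 0.364 and 0.235 CPM in KO against 1.37, 1.86 and 1.01 CPM in wt (edgeR adjusted p 0.0119). The Hmox1 call was lost without KO 3, without wt 2 and in the fit of all 18 libraries. The transferrin receptor gene Tfrc was at 574 ± 42.7 CPM in KO and 482 ± 134 CPM in wt (adjusted p 0.641).

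In the signalling of the erythropoietin receptor, which keeps erythroid progenitors alive, 1 of 18 genes rose and 1 fell. Each was 5.56% of the list, against 0.86% of all genes higher and 0.976% lower. Socs2, a feedback inhibitor of cytokine signalling, had 1.76, 1.41 and 1.76 CPM in KO, against 0.435, 0.388 and 0.584 CPM in wt (log2 1.82, SE 0.38, edgeR adjusted p 0.0179). The call of this lowly expressed gene was lost without KO 1, without KO 3 and without wt 2. It was also lost with length-scaled counts and in the fit of all 18 libraries. Gab1, an adaptor of receptor signalling, was at 15.5 ± 2.63 CPM in KO and 26.1 ± 3.12 CPM in wt (log2 -0.75, SE 0.13, edgeR adjusted p 0.00423). The receptor gene Epor was at 49.9 CPM in KO and 49.2 CPM in wt (adjusted p 0.958).

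Genes that make and run ribosomes were read because erythroid cells depend on them and the series' title names ribosomal constituents. EdgeR called 0 of 49 large-subunit and 0 of 34 small-subunit ribosomal protein genes, with 2 and 3 higher at an unadjusted p under 0.05 and none lower, while DESeq2 called 1 large-subunit and 0 small-subunit genes and voom 0. Their medians were 0.05 and 0.04 on the log2 scale, against -0.0029 over all genes, and over 8 alternatives these ran from -0.0054 to 0.11 and from -0.035 to 0.11, so the sign was not fixed. Rpl4 was at 2727 ± 56.0 CPM in KO and 2657 ± 168 CPM in wt, and Rps4x at 2206 ± 207 CPM in KO and 2036 ± 235 CPM in wt. Of 67 ribosome biogenesis factors edgeR called 0, as did DESeq2 and voom (2 rises and 4 falls below 0.05 before adjustment). Npm1, the one with the highest CPM, had 3753, 4569 and 4294 CPM in KO, against 4014, 4354 and 5037 CPM in wt, which overlap. Of 41 translation factors 0 rose and 2 fell (4.88%, against 0.976% of all genes), Eif2b3 (log2 -0.47, edgeR adjusted p 0.013) and Eif4g3 (-0.40, 0.0263). Both calls were lost with length-scaled counts, in the fit of all 18 libraries and without KO 2, KO 3 or wt 2. The Eif4g3 call was also lost without KO 1.

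Host genes of small nucleolar RNAs, which guide the chemical modification of ribosomal RNA, had 14 of 14 tested members at a negative log2 change and a median of -0.31. Of these 1 was called (7.14%, against 0.976% of all genes lower). It was Snhg3, with 6.43, 4.18 and 4.03 CPM in KO against 12.9, 11.7 and 7.44 CPM in wt (log2 -1.15, SE 0.23, edgeR adjusted p 0.021). The Snhg3 call was lost without KO 2, KO 3, wt 1 or wt 2, with length-scaled counts and in the fit of all 18 libraries. The wt libraries varied widely. Gas5, the member with the highest CPM, had 107, 108 and 104 CPM in KO, against 238, 145 and 95.7 CPM in wt, so that wt 3 lay below all KO libraries (adjusted p 0.615). Over the alternatives the list median ran from -0.48 to -0.03.

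Cell division genes were alike in number of calls. Of 48 S phase genes 0 rose and 1 fell (2.08%, against 0.976% of all genes). Tyms, which makes thymidylate for DNA synthesis, had 61.4, 66.2 and 63.5 CPM in KO, against 104, 113 and 122 CPM in wt (log2 -0.82, SE 0.09, edgeR adjusted p 3.88e-05). Mcm6, of the replicative helicase, was at 424 ± 13.3 CPM in KO and 403 ± 21.97 CPM in wt (adjusted p 0.779). Of 54 genes of G2 and mitosis edgeR called 0, as did DESeq2 and voom (0 rises and 2 falls below 0.05 before adjustment). Mki67 was at 1183 ± 62.4 CPM in KO and 1181 ± 146 CPM in wt. Of 24 p53 targets edgeR called 0, voom 0 and DESeq2 1 (3 rises and 1 fall below 0.05 before adjustment). Of 45 replication-dependent histone genes edgeR called 0, voom 0 and DESeq2 1 (2 rises and 1 falls below 0.05 before adjustment).

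**Figure D4:**
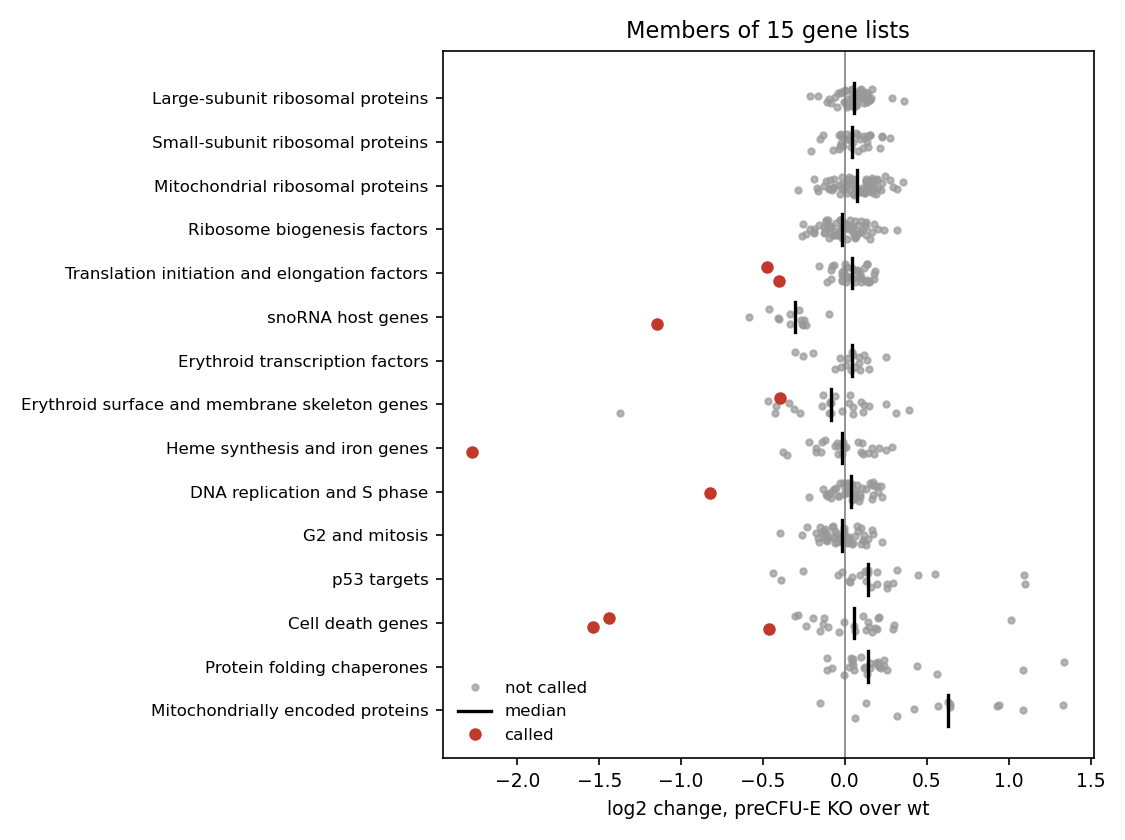
Log2 change (KO over wt) of every tested member of 15 gene lists. Grey points did not pass the edgeR test, red points did, and black bars are list medians. Called members lie among translation factors, snoRNA hosts, red cell surface genes, heme and iron genes, S phase genes and cell death genes, all of them lower in KO, and mitochondrially encoded genes are widely spread.

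Metabolic and chromatin lists gave few calls. Against 0.976% of all genes lower, 1 fall was 4.35% of the glycolysis list and 4.35% of the cholesterol list. It was 7.14% of the hypoxia list and 12.5% of the DNA methylation list. In glycolysis and linked sugar metabolism edgeR called 0 of 23 genes higher and 1 lower, Pgm2, where DESeq2 called 1 higher and voom 0 (6 rises and 1 fall below 0.05 before adjustment). In the same list Ldha was at 1283 ± 71.1 CPM in KO and 1247 ± 231 CPM in wt. Of 23 cholesterol synthesis genes 0 rose and 1 fell, Lss, which closes the sterol ring, at 19.6 ± 2.10 CPM in KO and 30.1 ± 2.42 CPM in wt (log2 -0.61, SE 0.11, edgeR adjusted p 0.0046). Of 14 hypoxia genes 0 rose and 1 fell, Hif3a (log2 -0.57, adjusted p 0.0172), a call lost in 5 of 15 alternatives. Of 8 DNA methylation enzymes 0 rose and 1 fell, Dnmt3b, with Dnmt1 at 518 ± 16.5 CPM in KO and 474 ± 13.1 CPM in wt (adjusted p 0.585). Protein-coding genes of the mitochondrial genome had a median of 0.63, with 0 of 13 called by edgeR, DESeq2 or voom and 0 at an unadjusted p under 0.05. Their sum followed the mitochondrial ribosomal RNA of the libraries: it ran from 5040 to 19400 CPM in KO and from 5380 to 7830 CPM in wt, and mt-Co1 had 9155, 11660 and 2298 CPM in KO, against 3734, 2222 and 3250 CPM in wt.

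Further lists held 0 calls by edgeR, DESeq2 and voom. Before adjustment, p was below 0.05 for 5 rises and 0 falls among 78 mitochondrial ribosomal proteins, 4 rises and 0 falls among 26 interferon response genes, and 2 rises and 0 falls each among 28 protein folding chaperones and 28 Polycomb genes. It was so for 1 rise and 0 falls each among 22 cytosolic tRNA synthetases and 20 ATF4 and amino acid supply genes, and for 2 rises and 2 falls among 15 late erythroblast markers.

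Splicing factors other than the PTB family were read next. Of 38 hnRNP and SR genes edgeR called 0, voom 0 and DESeq2 1 (1 rises and 5 falls below 0.05 before adjustment). Of 16 tissue-restricted splicing regulators edgeR called 0, voom 0 and DESeq2 1 (1 rise below 0.05 before adjustment). Mbnl1 was at 1340 ± 74.4 CPM in KO and 1403 ± 128 CPM in wt. Of 18 NMD factors edgeR, DESeq2 and voom called 0 (2 rises and 1 fall below 0.05 before adjustment).

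Of 9 tested markers of the neighbouring megakaryocyte lineage, 2 fell (22.2%, against 0.976% of all genes) and 0 rose by edgeR, DESeq2 and voom (0 rises below 0.05 before adjustment). The list as a whole leaned the other way, with 6 of 9 changes positive and a median of 0.13, which ran from -0.09 to 0.25 over the alternatives. It was chosen with earlier results of these data known, so its share of calls cannot show an excess. Vwf, von Willebrand factor, was at 4.56 ± 0.827 CPM in KO and 9.09 ± 1.42 CPM in wt (log2 -0.99, SE 0.18, edgeR adjusted p 0.00912). Gp1ba, its platelet receptor chain, was at 12.6 ± 1.54 CPM in KO and 20.99 ± 2.66 CPM in wt (log2 -0.74, SE 0.13, edgeR adjusted p 0.00427). The Vwf call was lost with length-scaled counts and in the fit of all 18 libraries (adjusted p up to 0.139). The Gp1ba call was lost in the latter (adjusted p 0.782). Over all 20 markers the summed level ran from 165 to 250.1 CPM in KO and from 180 to 191 CPM in wt, and the defining markers Pf4, Ppbp and Gp1bb were each under 0.4 CPM in every library. Cd48, which marks cells leaving the stem cell state, rose to 50.4, 42.6 and 33.2 CPM in KO, against 23.2, 27.4 and 27.4 CPM in wt (log2 0.70, SE 0.14, edgeR adjusted p 0.0207). The Cd48 call was lost without KO 2, wt 1 or wt 2, with length-scaled counts and in the fit of all 18 libraries. The part of other cell types in these differences was not tested. Granulocyte and monocyte markers summed to 11.9 to 24.4 CPM in KO and 11.7 to 29.3 CPM in wt, and B cell markers to 4.66 to 7.19 CPM in KO and 3.17 to 9.59 CPM in wt.

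The KO effect in preCFU-E was set beside that in preMegE, the nearest population, in a fit of these 12 libraries. Ptbp2 was the 1 gene of 17159 (0.00583%) whose effect differed (971 at an unadjusted p under 0.05). Its log2 change was 3.78 (SE 0.15) in preCFU-E and 2.23 (SE 0.14) in preMegE, a difference of 1.56 (SE 0.19, edgeR adjusted p 0.0021). On the scale of this fit it was at 119 ± 5.71 CPM in preCFU-E KO and 8.59 ± 1.66 CPM in preCFU-E wt, and at 74.5 ± 5.15 CPM in preMegE KO and 15.9 ± 1.99 CPM in preMegE wt. The difference thus had a higher KO level and a lower wt level in preCFU-E. It held without any 1 of the 12 libraries, at 1.42 to 1.66, with adjusted p of at most 0.0362. For Podxl the log2 change was 2.37 (SE 0.35) in preCFU-E and -0.06 (SE 0.34) in preMegE, but the difference of 2.43 (SE 0.49) did not pass over all genes (adjusted p 0.519, unadjusted p 8.12e-05). For Ripk1 it was -1.42 in preCFU-E and -0.66 in preMegE (difference -0.76, SE 0.17, adjusted p 0.526).

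Across the named rises, falls and PTB genes, 24 of 25 had the same sign of change in both progenitors, against 54.4% of all genes in this fit, and 16 of 25 were called in preMegE, against 0.373% of all genes. Podxl was the exception in sign. Dnmt3b had log2 changes of -1.49 in preCFU-E and -1.50 in preMegE, Atat1 of 1.88 in preCFU-E and 1.84 in preMegE, and Mlkl of -1.52 in preCFU-E and -1.64 in preMegE. Anxa9 was at -1.24 in preCFU-E and -0.34 in preMegE, where it was not called (adjusted p 0.508), and its difference did not pass either (0.858). The genes were chosen for their change in preCFU-E and include Ptbp1, the deleted gene, while the background is all genes, mostly without a call. Both points bear on how the counts and the pairs of values compare.

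**Figure D5:**
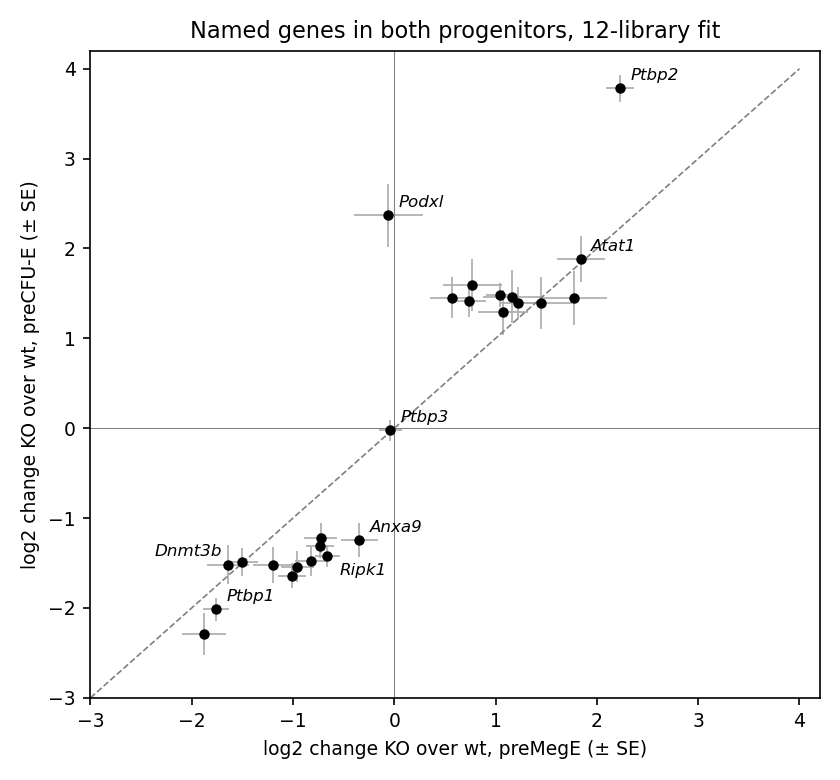
Log2 change (KO over wt) of the 25 named genes in preMegE (x axis) and preCFU-E (y axis), from the fit of 12 progenitor libraries. Bars are ± SE and the dashed line marks equal change. Ptbp2 (3.78 and 2.23 in preCFU-E and preMegE) lies above the line and is the 1 gene whose difference passed, and Podxl (2.37 and -0.06) lies farthest from it without passing.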

How the data were processed

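Total RNA of sorted bone marrow cells was amplified and made into libraries with NuGEN Ovation kits, per the labels' protocols, which do not mention strand, so a gene and an overlapping antisense gene may share reads. The authors deposited, for each library, estimated counts and TPM per transcript. Per the submitters' processing notes, the tool was Salmon 0.12.0 and the builds mm10 and GRCm38.p6. The index is not stated. Estimated counts divide shared reads among transcripts, so close copies such as ribosomal pseudogenes carry uncertain values, and percent spliced in rests on that division, not on counted junctions.

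Of 136288 transcripts 136176 matched GENCODE M21, and the unmatched rest took no more than 0.084% of reads. Counts were summed over 53458 genes, rounded, and tested with edgeR 4.0.16 (quasi-likelihood, robust, TMM, filterByExpr) in R 4.3.3 on the 6 preCFU-E libraries, with 4 residual degrees of freedom. Transcript counts were tested likewise, and usage with diffSpliceDGE for transcripts of at least 5% of the gene's TPM. Cassette exons (5 TPM or more on average, inclusion averaging 2 to 98 percent) were tested with limma 3.58.1 on the logit scale (offset 0.01). All adjusted p are Benjamini-Hochberg values over all features of the test. SE is the log2 change over the root of the F statistic. DESeq2 1.42.0 and voom were alternatives, and the tests were checked on simulated data.

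Named genes are the PTB family, the 12 largest called rises and 12 falls with a mean log2 CPM (pseudocount 0.5) of at least 2 and no overlap between groups, and for each of 41 lists (1107 entries) up to 4 called members and the most abundant one. Named transcripts are the 10 with the largest change (at least 5 TPM, no overlap, gene called for usage), and named exons the 12 largest changes in distinct genes without overlap. The members and lists were chosen with earlier results of these data known. An exact test of 3 against 3 cannot go below 0.1, so only models across all features were used.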

Additional observations from a re-analysis of the deposited data

Results flagged for a closer look

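The difference of the Ptbp2 response between preCFU-E and preMegE was singled out because the test of the difference itself passed: the log2 change was 1.557 higher in preCFU-E (SE 0.193, edgeR adjusted p 0.0021). It was not called when all 18 libraries shared a fit, where the HSC libraries with their larger spread enter.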

How the results depend on the processing

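The number of called genes, 252, was 490 without a filter on low counts, 387 with DESeq2, 94 with length-scaled counts and 33 when all 18 libraries shared a fit. It stayed within 1.5 times at 254 with RLE factors, 239 with at least 20 reads, 229 with voom and 257 with library sizes from nuclear protein-coding genes. Without 1 library it ran from 102 to 431, at 135 without KO 2, 139 without KO 3, 102 without wt 2 and 431 without wt 3. Called transcripts (150) ran from 26 to 58 without 1 library, genes called for usage (84) from 81 to 107, and called exons (95) from 42 to 68. With a limit of 20 points 63 exons were called. The difference between progenitors (1 gene) was called for 1 or 2 genes without 1 library and for 0 in the fit of all 18 (edgeR, 564 at an unadjusted p under 0.05). Of 39 named genes called, 14 passed in every alternative, and Ptbp1 and Ptbp2 were among them. The calls of Gab1, Lss, Tyms, Unc45a and Anxa9 were lost only in the fit of all 18 libraries (edgeR adjusted p from 0.126 for Anxa9 to 0.824 for Lss and Unc45a).

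KO and wt libraries share replicate numbers, but same-numbered libraries did not deviate together (correlations 0.078, -0.119 and 0.068), so the numbers were not taken as pairs. With the replicate block edgeR called 514 genes and 0 transcripts (2218 at an unadjusted p under 0.05, voom without the block 131), and limma 0 exons (584 at an unadjusted p under 0.05). The largest adjusted p of the 8 exons that held without any single library was then 0.0884.

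Transcripts had a coefficient of variation of 0.469, against 0.127 for genes.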

Other observations

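Cytoskeletal genes on none of the lists were among the called ones, and those named here were chosen after their values were seen. Flna, the actin crosslinker filamin A, was at 148 ± 16.03 CPM in KO and 304 ± 18.5 CPM in wt (log2 -1.03, SE 0.10, edgeR adjusted p 8.02e-06). Sept8 was at 227 ± 19.5 CPM in KO and 359 ± 27.2 CPM in wt (log2 -0.66, adjusted p 0.000989), and Sept11, also of the septin filaments, at 89.7 ± 9.33 CPM in KO and 139 ± 17.3 CPM in wt (log2 -0.63, adjusted p 0.00334). Iqgap1, a scaffold that links actin to cell adhesion, was at 95.4 ± 12.6 CPM in KO and 155 ± 8.14 CPM in wt (log2 -0.70, adjusted p 0.000797). Mat2a, which makes the methyl donor S-adenosylmethionine, was at 470 ± 23.0 CPM in KO and 673 ± 95.3 CPM in wt (log2 -0.52, adjusted p 0.0172).

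Sms, the spermine synthase gene, and its pseudogene Sms-ps moved in opposite directions. Sms was at 151 ± 5.76 CPM in KO and 113 ± 8.29 CPM in wt (log2 0.41, SE 0.09, edgeR adjusted p 0.0194), and a 115-nt coding exon of it was included at 90.6%, 91.9% and 85.7% in KO, against 61.0%, 57.3% and 65.5% in wt (limma adjusted p 0.0277). Sms-ps was listed at 0 in every KO library and at 7.35 ± 1.81 CPM in wt (edgeR adjusted p 9.67e-08). The 2 may share reads, so how their counts were divided is uncertain.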
